A study of Mus musculus with 9 samples.

Results

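CXC chemokines are small secreted proteins whose first conserved cysteine pair is separated by a single residue, and they steer leukocytes through receptors of the Cxcr family. Transcripts of 9 of them were followed in mouse skin, identified in the files by gene symbol: Cxcl1, Cxcl2, Cxcl5, Cxcl9, Cxcl10, Cxcl12, Cxcl13, Cxcl14 and Cxcl16. They are 9 of the 57180 rows of the count table, and 6 of the 9 had enough counts to be among the 17168 genes tested.

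The tissue was dorsal skin of BALB/c nude mice. These mice lack a thymus, so they have few mature T cells but keep NK cells, B cells and myeloid cells. The study has 3 groups of 3 libraries. NoUVB skin received no irradiation, and its labels name no saline. UVB-Saline and UVB-hCOL3A1 skin was irradiated every second day with ultraviolet B for 8 weeks, at doses stepped up from 60 to 240 mJ/cm² (1 to 4 minimal erythemal doses). The labels add saline in the first irradiated group and hCOL3A1 in the second, which the series title ties to mRNA delivery of type III collagen. The sources used here give no route, dose or carrier, and no group with the carrier alone was analysed, so effects of the collagen mRNA and of its carrier cannot be told apart. Collection is placed at day 28 in all groups, with no start given for that count. The labels do not say whether libraries of a group came from separate animals, and the p-values then reflect only how these libraries scatter, which may be technical. The questions the design puts are how chemokine transcripts differ between irradiated and unirradiated skin, and between irradiated skin with hCOL3A1 and with saline.

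CXC ligands fall into families by receptor and by what induces them. Cxcl1, Cxcl2 and Cxcl5 carry the ELR sequence before the CXC motif, bind Cxcr2, draw neutrophils, and are transcribed through NF-kB downstream of IL-1, TNF and IL-17. Cxcl9 and Cxcl10 lack it, bind Cxcr3 on activated T and NK cells and are induced by interferons. Cxcl12 is made constitutively by stromal cells and acts through Cxcr4, Cxcl13 attracts B cells through Cxcr5, Cxcl14 is made constitutively by skin epithelium, and Cxcl16 is a membrane-bound ligand of Cxcr6 made by macrophages and dendritic cells.

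The 250 bases before the transcription start of Cxcl1, Cxcl2, Cxcl9 and Cxcl10 are printed to show which NF-kB and interferon element letters lie in the promoters of inducible members. They are from RefSeq on GRCm38.p6, a build other than the GRCm39 named in the submitters' processing notes, and they run 5′ to 3′ on the gene's own strand. Cxcl1 is at chr5:90890995-90891244 on the plus strand, Cxcl2 at chr5:90903649-90903898 on the plus strand, Cxcl9 at chr5:92328080-92328329 on the minus strand and Cxcl10 at chr5:92348890-92349139 on the minus strand. Capitals mark matches on either strand to an NF-kB form, GGG and TTCC with 3 bases between, or to an interferon-stimulated response element (ISRE) form, GAAA and GAAA with 2 bases between.
Cxcl1: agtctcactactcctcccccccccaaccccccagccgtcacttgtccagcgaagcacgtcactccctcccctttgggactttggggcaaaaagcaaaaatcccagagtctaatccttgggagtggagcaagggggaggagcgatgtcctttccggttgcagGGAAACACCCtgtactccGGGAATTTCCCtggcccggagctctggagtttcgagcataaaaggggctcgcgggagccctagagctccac
Cxcl2: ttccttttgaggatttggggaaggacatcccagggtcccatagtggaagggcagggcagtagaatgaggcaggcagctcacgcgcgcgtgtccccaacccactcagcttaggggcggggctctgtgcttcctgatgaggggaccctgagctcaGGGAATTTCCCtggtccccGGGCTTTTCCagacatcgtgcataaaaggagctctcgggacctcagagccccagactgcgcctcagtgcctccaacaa
Cxcl9: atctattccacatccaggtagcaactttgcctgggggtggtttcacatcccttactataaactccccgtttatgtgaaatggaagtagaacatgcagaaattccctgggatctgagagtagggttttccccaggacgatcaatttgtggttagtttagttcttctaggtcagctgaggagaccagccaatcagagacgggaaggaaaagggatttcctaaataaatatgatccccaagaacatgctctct
Cxcl10: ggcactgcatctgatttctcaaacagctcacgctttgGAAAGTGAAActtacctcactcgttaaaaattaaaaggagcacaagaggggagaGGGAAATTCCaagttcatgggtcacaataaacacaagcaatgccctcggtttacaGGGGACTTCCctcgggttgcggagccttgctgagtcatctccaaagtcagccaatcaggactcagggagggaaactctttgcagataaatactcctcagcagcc

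Counting bases back from the start, the Cxcl1 promoter held NF-kB matches at 89 to 80 and at 71 to 61, where matches on both strands overlap. The Cxcl2 promoter held them at 97 to 87, again on both strands, and at 78 to 69. Cxcl10 had an ISRE match at 213 to 204 and NF-kB matches at 159 to 150 and 104 to 95. No match to either form lay in the Cxcl9 window. Promoters were found for 7 of the 9 members, and of the others only Cxcl14 had a match, to the ISRE form at 172 to 163. It also matched the interferon gamma element form, TTC and GAA with 3 bases between, at 191 to 183, which no other of the 7 windows did. Among 32851 promoters of the same length, 4.65% held the NF-kB form, 2.98% the ISRE form and 7.02% the interferon gamma element form. A match of letters is a description of the sequence and does not show that a factor binds there. Only these forms were searched, so a window without a match may still hold an element of another form. In gene order, Cxcl1 and Cxcl2 are direct neighbours, and Cxcl9 and Cxcl10 are separated by Art3 alone and followed by Cxcl11.

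Total estimated counts were 7640172 to 12927411 per library. Ribosomal 18S reads (Rn18s-rs5) made up 34.3% to 55.3% in 8 libraries but 7.71% in NoUVB 2, leaving 4274083 to 7402188 counts for other genes. Levels are given as CPM, counts relative to library size, scaled by TMM, a factor that aligns the bulk of genes between libraries, and 3 counts corresponded to 0.229 to 0.426 CPM. UVB-Saline 3 and UVB-hCOL3A1 3 stood apart on the first principal component, at 55.0 and 39.8 against −33.5 to 10.05 for the other 7. These 2 libraries also held the highest level of most members: UVB-Saline 3 of 4, UVB-hCOL3A1 3 of 3, and NoUVB 2 of the other 2. The share of all genes that were highest in each library was not counted, here or for the gene lists below. All markers of the keratinocyte and fibroblast lists had counts, as the label of skin implies. In bulk tissue, fewer cells of a type and less RNA per cell cannot be told apart.

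Adjusted for length, the epithelial ligand Cxcl14 was the most abundant member. In NoUVB skin it measured 28.9 to 43.6 CPM per kilobase of exon, with no overlap with Cxcl12 at 8.64 to 13.9. Cxcl16 (4.37 to 10.2), Cxcl9 (1.01 to 9.51) and Cxcl13 (3.26 to 4.45) followed on that scale, and neighbours from Cxcl12 down to Cxcl13 overlapped. Cxcl10 lay at 1.03 to 2.90 CPM per kilobase and did not overlap with Cxcl13 above it or with Cxcl1 below it. The ELR ligands were lowest, Cxcl1 at 0.191 to 0.462, Cxcl2 at 0.0687 to 0.173 and Cxcl5 at 0 to 0.0479 CPM per kilobase. The order of group means was the same in UVB-hCOL3A1 skin. In UVB-Saline skin Cxcl9 took the second place by its mean, 24.3 CPM per kilobase, while its median there was 4.12, below Cxcl16 at 8.38 and Cxcl12 at 7.92. Lengths were those of merged exons in GENCODE M21. With mean transcript length instead, the order in NoUVB and UVB-hCOL3A1 skin was unchanged, and Cxcl16 moved from the third to the fifth place in UVB-Saline skin.

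**Figure D1:**
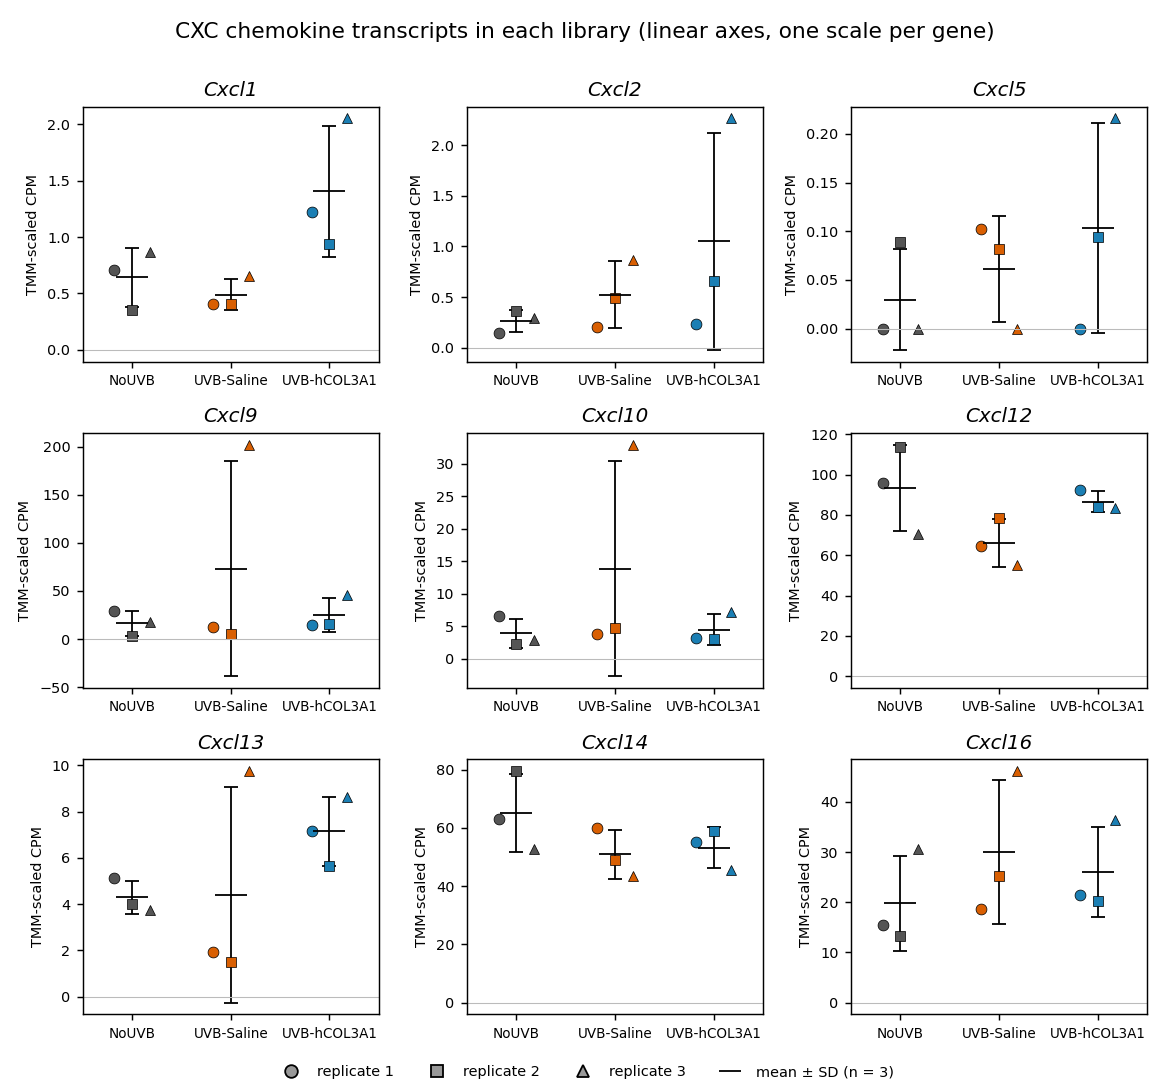
TMM-scaled CPM (linear vertical axes, 1 scale per gene) of the 9 CXC chemokines in the 3 NoUVB, 3 UVB-Saline and 3 UVB-hCOL3A1 libraries. Symbols are libraries by replicate number, and bars give the mean ± SD (n = 3), which can reach below 0 where 1 library is far above the others, as UVB-Saline 3 is at 202 CPM for Cxcl9. Cxcl1, which was not tested, is higher in each UVB-hCOL3A1 library than in any other. Of genes tested, 8.95% were higher with no overlap against UVB-Saline and 10.7% against NoUVB.

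No member passed the adjusted threshold of 0.05 in any of the 3 comparisons by edgeR's quasi-likelihood test. In UVB-Saline against NoUVB 0 of the 6 tested members were called, where 0.0175% of all genes tested were, and Cxcl12 alone had an unadjusted p under 0.05, in the lower direction, where 4.6% of all genes did. The 2 groups overlapped for every member, while 7.18% of all genes were higher and 6.61% lower with no overlap. In UVB-hCOL3A1 against UVB-Saline 0 of 6 were called, as were 0% of all genes, and Cxcl12 was again the 1 member with an unadjusted p under 0.05, now higher (5.97% of all genes were higher at that level and 5.32% lower). It was also the 1 tested member with no overlap between the groups, beside 8.95% of all genes higher and 8.33% lower. In UVB-hCOL3A1 against NoUVB 0 of 6 were called, against 0.0408% of all genes, and 0 had an unadjusted p under 0.05, beside 6.29% of all genes higher and 5.52% lower. DESeq2 called 0 of the 5 members to which it gave an adjusted p, which leaves out Cxcl10, and limma voom called 0 of 6 in each comparison. The comparisons share groups, so their values are given side by side and are not independent of each other. As background for the signs given below, 51.8% of all genes tested were positive in UVB-Saline against NoUVB. The share was 46.1% in UVB-hCOL3A1 against UVB-Saline and 49.2% in UVB-hCOL3A1 against NoUVB.

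The ELR ligands were close to the counting limit in every group, and all 3 were left out by the filter on low counts. Cxcl1, which draws neutrophils, had 5, 4 and 9 counts in NoUVB, 4, 5 and 6 in UVB-Saline, and 16, 10 and 19 in UVB-hCOL3A1. In CPM these were 0.710, 0.357 and 0.866, then 0.411, 0.411 and 0.650, then 1.22, 0.941 and 2.05. All 3 UVB-hCOL3A1 libraries lay above all 6 others, although the gap between the nearest libraries, 0.866 and 0.941 CPM, is less than 1 count. Among genes tested, which leave out Cxcl1, 8.95% were higher with no overlap against UVB-Saline and 10.7% against NoUVB. With no filter on low counts, edgeR gave UVB-hCOL3A1 against UVB-Saline a log2 difference of 1.5 ± 0.54 (SE, adjusted p = 0.367, with a range of 0.187 to 0.603 over the alternatives that tested it). Against NoUVB it was 1.12 ± 0.53 (adjusted p = 0.657, range 0.307 to 0.657). UVB-Saline against NoUVB gave −0.38 ± 0.60.

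Cxcl2, a second Cxcr2 ligand made by macrophages and other activated cells, had 1, 4 and 3 counts in NoUVB, 2, 6 and 8 in UVB-Saline, and 3, 7 and 21 in UVB-hCOL3A1. The groups overlapped, and UVB-hCOL3A1 3 held the highest value. Its log2 difference without the filter was 1.83 ± 0.74 in UVB-hCOL3A1 against NoUVB (edgeR, adjusted p = 0.498) and 0.95 ± 0.67 against UVB-Saline. Cxcl5 had 0 to 2 counts in every library, at or under the floor of 3 counts, so no fold is given. Cxcl3 (0 to 5 counts), Cxcl15 (0 to 1), Ppbp (0 to 4) and Cxcl17 (0 to 3), other CXC ligands, were not tested either.

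Most neutrophil markers were also too low to test. Of 13 listed, 4 were tested, among them Csf3r, the receptor for a neutrophil growth factor, at 4.72 to 16.8 CPM, and S100a8, a calcium-binding protein also made by keratinocytes, at 3.70 to 11.9 CPM. Of the 4, 0 were called in any comparison, and the defining marker Ly6g had 0 counts in all 9 libraries. The summed level of the list was 14.2 to 27.3 CPM in NoUVB, 20.3 to 34.6 in UVB-Saline and 24.3 to 43.1 in UVB-hCOL3A1, with the highest library of each group labelled replicate 3. The receptor Cxcr2 measured 0.142, 0.804 and 1.54 CPM in NoUVB, 0.924, 1.73 and 4.12 in UVB-Saline and 0.839, 1.22 and 2.81 in UVB-hCOL3A1. Its groups overlapped, and UVB-Saline against NoUVB gave 1.33 ± 0.74 (adjusted p = 0.619). The related receptor Cxcr1 had at most 1 count.

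Genes of NF-kB, IL-1 and IL-17 signalling, which drive the ELR ligands, were centred near 0. Of 24 listed, 19 were tested, with median log2 differences of 0.01 in UVB-Saline against NoUVB, −0.09 in UVB-hCOL3A1 against UVB-Saline and 0.04 in UVB-hCOL3A1 against NoUVB. The medians of all genes tested were 0.01, −0.02 and −0.01. Il17a, Il17f, Il6, Csf2 and Csf3 were the 5 not tested. The IL-17 receptor subunit Il17rc had the smallest p of the list in UVB-Saline against NoUVB, with a log2 difference of 0.42 ± 0.15 (adjusted p = 0.44), and −0.46 ± 0.15 in UVB-hCOL3A1 against UVB-Saline (adjusted p = 0.33). Nfkb1, Rela and Il1r1 followed in UVB-Saline against NoUVB with 0.35 ± 0.20, −0.21 ± 0.13 and −0.19 ± 0.12.

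The 1 called gene of that list was Lcn2, an iron-binding protein of epithelium and neutrophils and a known IL-17 and NF-kB target. It measured 4.12, 2.95 and 4.33 CPM in NoUVB, 5.95, 5.84 and 3.69 in UVB-Saline and 16.5, 20.8 and 10.9 in UVB-hCOL3A1. The UVB-hCOL3A1 libraries did not overlap with either other group. Lcn2 rose in UVB-hCOL3A1 against NoUVB by 2.09 ± 0.28 on the log2 scale (edgeR adjusted p = 0.0483, close to the threshold, with 0.239 as the highest over the alternatives). The call was lost with limma voom, with non-robust dispersion and without any 1 NoUVB library, UVB-Saline 2, UVB-hCOL3A1 1 or UVB-hCOL3A1 2. Against UVB-Saline the log2 difference was 1.63 ± 0.27 (adjusted p = 0.128). It passed the threshold in 6 of 21 alternatives, among them DESeq2, no filter on low counts and leaving out UVB-Saline 3 (adjusted p over all alternatives 0.000262 to 0.558).

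The highest level of each Cxcr3 ligand came from the same library, UVB-Saline 3. Cxcl9 measured 28.7, 3.04 and 17.2 CPM in NoUVB, 12.4, 4.85 and 202 in UVB-Saline, and 15.1, 15.2 and 45.4 in UVB-hCOL3A1. UVB-Saline 3, with 1865 counts, stood above all others, while UVB-Saline 1 and 2 lay inside the NoUVB range. The log2 difference of UVB-Saline from NoUVB was 2.19 ± 1.48 (adjusted p = 0.702), that of UVB-hCOL3A1 from UVB-Saline −1.54 ± 1.43 (adjusted p = 0.74), and that of UVB-hCOL3A1 from NoUVB 0.65 ± 1.48 (adjusted p = 0.905). Without UVB-Saline 3 the first became −0.90 ± 1.07 and the second 1.57 ± 1.06, both of opposite sign. Without UVB-hCOL3A1 3 the third became −0.05.

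Cxcl10 had the same highest library. It measured 6.53, 2.32 and 2.98 CPM in NoUVB, 3.90, 4.77 and 33.0 in UVB-Saline, and 3.20, 3.10 and 7.23 in UVB-hCOL3A1. Apart from UVB-Saline 3 and UVB-hCOL3A1 3, no irradiated library reached the highest NoUVB value. The log2 difference of UVB-Saline from NoUVB was 1.85 ± 0.92 (adjusted p = 0.599), and it was 0.19 ± 0.49 without UVB-Saline 3. UVB-hCOL3A1 from UVB-Saline gave −1.63 ± 0.89 (adjusted p = 0.544), and 0.05 ± 0.48 without that library. UVB-hCOL3A1 from NoUVB gave 0.23 ± 0.97 (adjusted p = 0.955), and −0.25 without UVB-hCOL3A1 3. With library size alone in place of TMM, Cxcl10 passed the threshold in the first 2 of these (adjusted p = 0.00539, range over the alternatives 0.00539 to 0.964, and 0.0492, range 0.0492 to 0.977). That scaling called 61 of all genes higher and 39 lower in UVB-Saline against NoUVB. Its counts in UVB-hCOL3A1 against UVB-Saline are in the last section.

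Cxcl11, the third Cxcr3 ligand and the gene after Cxcl10, measured 5.26, 0.982 and 0.769 CPM in NoUVB, 1.54, 2.8 and 17.7 in UVB-Saline, and 1.45, 2.26 and 4.75 in UVB-hCOL3A1. UVB-Saline 3 was again highest. The log2 difference of UVB-Saline from NoUVB was 1.75 ± 1.1 (adjusted p = 0.673), and that of UVB-hCOL3A1 from UVB-Saline was −1.39 ± 1.05, which turned to 0.35 without UVB-Saline 3. The receptor Cxcr3 was low, at 0.308 to 2.16 CPM over all libraries, and differed by 0.28 ± 0.59 between UVB-Saline and NoUVB and by 0.72 ± 0.53 between UVB-hCOL3A1 and UVB-Saline. The first of these was −0.36 without UVB-Saline 3.

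Most genes of the interferon gamma pathway had the same library at the top: of 20 genes listed 18 were tested, and 16 of these were highest in UVB-Saline 3. How many of all genes had that library at the top was not counted. The other 2 listed genes tested were Ifngr1, highest in UVB-hCOL3A1 3, and the cytokine Il18, highest in NoUVB 3. Ifng itself was not tested and had 4, 1 and 2 counts in NoUVB, 2, 1 and 24 in UVB-Saline and 7, 1 and 10 in UVB-hCOL3A1. Of the 18 tested, 16 had a positive log2 difference in UVB-Saline against NoUVB, with a median of 0.87 beside 0.01 for all genes. None of the 18 was called, and 0 had an unadjusted p under 0.05 in the positive direction, where 4.93% of all genes did. In UVB-hCOL3A1 against UVB-Saline 5 of 18 were positive and the median was −0.44. The smallest p in UVB-Saline against NoUVB belonged to the receptor subunit Ifngr1, which was lower, at −0.58 ± 0.21 (adjusted p = 0.447), and at 0.66 ± 0.21 in UVB-hCOL3A1 against UVB-Saline (adjusted p = 0.318).

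The checkpoint ligand Cd274 and the feedback inhibitor Socs1 were also positive in UVB-Saline against NoUVB. Cd274 measured 9.52, 8.93 and 11.9 CPM in NoUVB, 8.83, 16.5 and 42.2 in UVB-Saline, and 13.8, 14.5 and 24.7 in UVB-hCOL3A1, with UVB-Saline 3 again highest. Cd274 had a log2 difference from NoUVB of 1.14 ± 0.54 (adjusted p = 0.57) and Socs1 one of 1.08 ± 0.59 (adjusted p = 0.612). Without UVB-Saline 3 these were 0.32 and 0.11.

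Type I interferon genes were also highest in UVB-Saline 3 for the most part. Of 18 listed, 17 were tested, of which 11 were highest in that library, 5 in UVB-hCOL3A1 2 and 1 in UVB-Saline 1, and the list summed to 479 CPM in UVB-Saline 3 and to at most 318 in any other library. Of the 17, 15 were positive in UVB-Saline against NoUVB, with a median of 1.11 and 0 called. In the positive direction 12 had an unadjusted p under 0.05 (edgeR), where 4.93% of all genes did. In UVB-hCOL3A1 against UVB-Saline 8 were positive and 9 negative, with a median of −0.06 and 0 called. There 3 had an unadjusted p under 0.05 (edgeR), all higher, where 5.97% of all genes did. In UVB-hCOL3A1 against NoUVB 16 of 17 were positive, with a median of 1.14, 10 at an unadjusted p under 0.05 where 6.29% of all genes were, and 2 called. Those 2 were Irf7, the factor that amplifies the type I response, and Oasl1, a member of the oligoadenylate synthetase family. Irf7 measured 6.11, 5.89 and 4.81 CPM in NoUVB, 9.85, 16.2 and 23.3 in UVB-Saline, and 40.6, 58.9 and 33.6 in UVB-hCOL3A1. The 3 groups did not overlap.

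Irf7 rose in UVB-hCOL3A1 against NoUVB by 2.99 ± 0.33 on the log2 scale (edgeR adjusted p = 0.0482), and its difference from UVB-Saline was 1.43 ± 0.30 (adjusted p = 0.206, under the threshold in 4 of 21 alternatives, range 0.00171 to 0.564). Oasl1 rose by 2.89 ± 0.37 against NoUVB (adjusted p = 0.0482) and differed from UVB-Saline by 0.97 ± 0.31 (adjusted p = 0.311). Both calls are close to the threshold, and the highest adjusted p over the alternatives was 0.228 for Irf7 and 0.239 for Oasl1. Both were lost with limma voom and without any 1 NoUVB library, UVB-hCOL3A1 1 or UVB-hCOL3A1 2. Irf7 was also lost without UVB-Saline 2, and Oasl1 without UVB-hCOL3A1 3 and with non-robust dispersion. In UVB-Saline against NoUVB, Irf7 (1.56 ± 0.33), Oasl1 (1.92 ± 0.39), the antiviral GTPase Mx1 (2.62 ± 0.62) and Ifit1 (2.52 ± 0.60), which binds viral RNA, had no overlap between groups and adjusted p-values of 0.231 to 0.303. Each of these 4 passed the threshold with DESeq2 and with library size alone. Cxcl10, which type I interferon also induces, was highest in UVB-Saline 3, as were Mx1 and Ifit1, and lay at 3.20 and 3.10 CPM in UVB-hCOL3A1 1 and 2, where Irf7 and Oasl1 were highest.

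**Figure D2:**
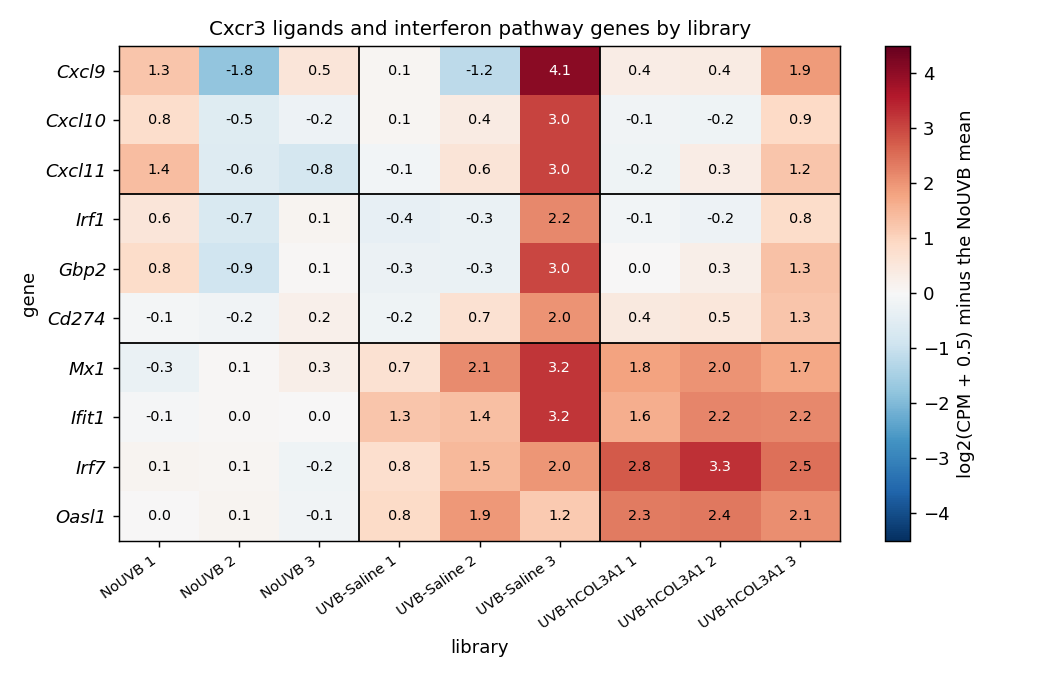
Level of the Cxcr3 ligands (top), interferon gamma pathway genes (middle) and type I interferon genes (bottom) in each library, as log2(CPM + 0.5) minus the mean of the NoUVB libraries. Cxcl9, Cxcl10 and Cxcl11 reach 4.05, 3.03 and 3.04 in UVB-Saline 3, while Irf7 lies between 2.49 and 3.29 in all 3 UVB-hCOL3A1 libraries.

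Among cells that make or answer Cxcr3 ligands, the marker sums of NK and T cells and of dendritic cells were highest in UVB-Saline 3, and that of macrophages in UVB-hCOL3A1 3. The 15 NK and T cell markers summed to 23.9 to 31.6 CPM in NoUVB, 20.7 and 24.5 in UVB-Saline 1 and 2 and 60.1 in UVB-Saline 3, and 28.3 to 46.2 in UVB-hCOL3A1. Of 13 tested, 10 were positive in UVB-Saline against NoUVB and 0 were called. The 10 dendritic and Langerhans cell markers summed to 192 to 278 CPM in NoUVB, 143, 198 and 437 in UVB-Saline, and 186 to 329 in UVB-hCOL3A1, with 5 of 10 positive in UVB-Saline against NoUVB. H2-Ab1 alone measured 318 CPM in UVB-Saline 3. Itgax, Flt3, Xcr1 and Ccr7 were also highest in that library. Clec9a (2.17 CPM) and Cd209a (1.63 CPM) lay there below all NoUVB libraries. Macrophage markers summed to 508 to 514, 298 to 775 and 644 to 947 CPM, and 11 of 11 tested were positive in UVB-hCOL3A1 against UVB-Saline, with 0 called. The part of these cells in the Cxcl9 and Cxcl10 values was not tested.

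Cxcl12, the stromal ligand of Cxcr4, was the member with the smallest p in UVB-Saline against NoUVB and in UVB-hCOL3A1 against UVB-Saline. It measured 95.9, 113 and 70.6 CPM in NoUVB (93.3 ± 21.5, SD, n = 3), 64.8, 78.4 and 55.1 in UVB-Saline (66.1 ± 11.7), and 92.4, 83.8 and 83.7 in UVB-hCOL3A1 (86.6 ± 5.0). UVB-Saline was lowest by its mean, overlapped with NoUVB through 1 library of each, and lay wholly below UVB-hCOL3A1. The log2 difference of UVB-Saline from NoUVB was −0.50 ± 0.17 (adjusted p = 0.426), a fold of 0.709. That of UVB-hCOL3A1 from UVB-Saline was 0.39 ± 0.17 (adjusted p = 0.439), a fold of 1.31. Its sign was positive in all 21 alternatives. The unadjusted p was not under 0.05 with library size alone, limma voom quality weights or edgeR with non-robust dispersion. Nor was it in edgeR without NoUVB 1, UVB-Saline 1, UVB-Saline 3, any 1 UVB-hCOL3A1 library, or both UVB-Saline 3 and UVB-hCOL3A1 3. UVB-hCOL3A1 differed from NoUVB by −0.11 ± 0.17 (adjusted p = 0.852), and by 0.06 without NoUVB 2.

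The Cxcl12 receptors leaned the same way in irradiated skin. Cxcr4 measured 5.85, 5.59 and 6.18 CPM in UVB-Saline and 7.17, 8.28 and 9.07 in UVB-hCOL3A1, with no overlap and a log2 difference of 0.47 ± 0.23 (adjusted p = 0.468). The NoUVB libraries, at 4.40 to 8.66, spanned both. Ackr3, a scavenging receptor for Cxcl12, measured 9.65, 10.03 and 13.2 in UVB-Saline and 12.6, 18.3 and 14.1 in UVB-hCOL3A1, and differed by 0.45 ± 0.18 (adjusted p = 0.401) with overlap. Ackr1, which binds several chemokines without signalling, lay at 5.11 to 9.47 CPM in NoUVB, 4.77 to 6.50 in UVB-Saline and 4.8 to 7.06 in UVB-hCOL3A1. Of the 8 receptors listed, 6 were tested and 0 were called in any comparison.

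Most markers of stromal cells, though not all, had positive differences in UVB-hCOL3A1 against UVB-Saline, as Cxcl12 did. All 12 fibroblast markers were positive in UVB-hCOL3A1 against UVB-Saline, with a median log2 difference of 0.34 and 0 called, and they summed to 5690 to 6134 CPM in UVB-Saline, 7294 to 8774 in UVB-hCOL3A1 and 6044 to 7155 in NoUVB. The fibroblast list includes mouse Col3a1, and whether reads of the human COL3A1 mRNA were counted there was not tested. The 10 adipocyte markers were all negative in UVB-Saline against NoUVB (median −0.94) and all positive in UVB-hCOL3A1 against UVB-Saline (median 0.91), again with 0 called. Their sums were 806 to 1956, 609 to 871 and 1030 to 1714 CPM in NoUVB, UVB-Saline and UVB-hCOL3A1. Lymphatic endothelial markers summed to 146 to 180, 111 to 134 and 166 to 178 CPM. In UVB-hCOL3A1 against UVB-Saline 6 of 7 lymphatic, 7 of 10 blood endothelial and 7 of 9 pericyte and smooth muscle markers were positive. Outside the stroma, 8 of 9 skeletal muscle markers were positive there (median 1.17) and 0 of 12 keratinocyte markers were (median −0.26), with 0 called. The rest of each list was negative. Of all genes tested, 46.1% were positive in that comparison. The part of these cells in the Cxcl12 values was not tested. The genes with the profile most like that of Cxcl12 over the 9 libraries were Zfp395 (r = 0.97), Npepl1 (r = 0.96) and Acvr1c (r = 0.95).

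Cxcl13, which guides B cells into follicles, is the member that passed the threshold once 1 library was left out. It measured 5.11, 4.02 and 3.75 CPM in NoUVB, 1.95, 1.48 and 9.76 in UVB-Saline, and 7.17, 5.64 and 8.64 in UVB-hCOL3A1. UVB-Saline 1 and 2 were the 2 lowest of the 9 libraries and UVB-Saline 3 the highest, while all UVB-hCOL3A1 libraries lay above all NoUVB libraries, as for 10.7% of all genes. With all libraries the log2 difference was 0.01 ± 0.63 in UVB-Saline against NoUVB (adjusted p = 0.996), 0.73 ± 0.60 in UVB-hCOL3A1 against UVB-Saline (adjusted p = 0.693), and 0.74 ± 0.60 in UVB-hCOL3A1 against NoUVB (adjusted p = 0.682).

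Without UVB-Saline 3, Cxcl13 was higher in UVB-hCOL3A1 than in UVB-Saline by 2.08 ± 0.28 on the log2 scale and passed edgeR's adjusted threshold (adjusted p = 0.0177, range over the alternatives 0.0177 to 1.00). The difference of UVB-Saline from NoUVB was then −1.33 ± 0.29 (adjusted p = 0.298) and that of UVB-hCOL3A1 from NoUVB 0.76 ± 0.22 (adjusted p = 0.135). Leaving out UVB-hCOL3A1 3 as well, chosen after seeing the data, gave 1.93 ± 0.30 in UVB-hCOL3A1 against UVB-Saline (adjusted p = 0.0364). Both fits rest on 2 UVB-Saline libraries. Counts of all genes called are in the last section, for the fit without UVB-Saline 3 alone only within a range.

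The Cxcl13 receptor Cxcr5 was too low to test, with 0 to 9 counts in a library. B and plasma cell markers summed to 19.0 to 22.7 CPM in NoUVB, 11.7, 57.8 and 237 in UVB-Saline, and 45.2, 317 and 620 in UVB-hCOL3A1. Over all libraries UVB-hCOL3A1 1 was highest in the markers and UVB-Saline 3 in Cxcl13. Within the UVB-Saline group, UVB-Saline 3 was highest and UVB-Saline 2 lowest in both. Of the 9 markers 4 were tested, 0 were called, and Ighm and Igkc made up most of the sum. Macrophage marker sums are given above. The part of B and plasma cells and of macrophages in the Cxcl13 values was not tested. The profiles most like that of Cxcl13 were those of Eloa (r = 0.96), Lrmda (r = 0.95) and Nudt9 (r = 0.93).

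**Figure D3:**
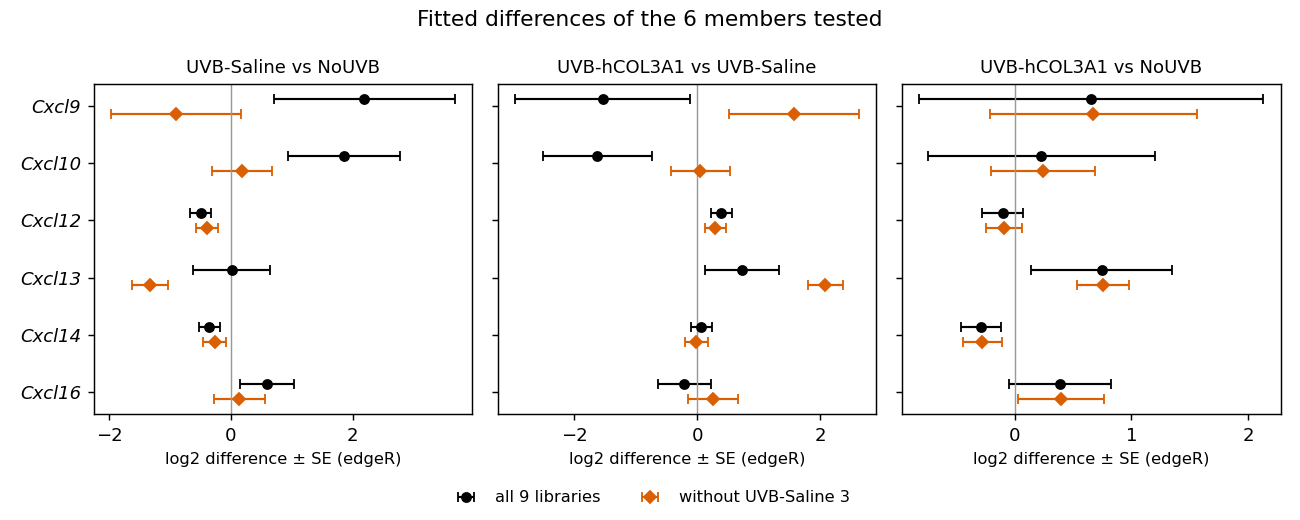
Fitted log2 difference ± SE (edgeR) of the 6 tested members in each comparison, with all 9 libraries (black circles) and without UVB-Saline 3 (orange diamonds). Members that change sign include Cxcl9 (left and middle panels), Cxcl13 (left panel), and Cxcl10 and Cxcl16 (middle panel). Cxcl13 moves from 0.73 to 2.08 in the middle panel, while Cxcl12 and Cxcl14 move little.

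Cxcl14, the constitutive ligand of skin epithelium, measured 63.1, 79.6 and 52.7 CPM in NoUVB, 59.9, 49.1 and 43.6 in UVB-Saline, and 55.0, 59.1 and 45.4 in UVB-hCOL3A1. The groups overlapped, with the highest value in NoUVB and the lowest in UVB-Saline. Its log2 difference from NoUVB was −0.36 ± 0.17 in UVB-Saline (adjusted p = 0.562) and −0.29 ± 0.17 in UVB-hCOL3A1 (adjusted p = 0.541). The 2 irradiated groups differed by 0.07 ± 0.17 (adjusted p = 0.927). Keratinocyte marker sums ran from 5083 to 7370 CPM in NoUVB, 6722 to 9761 in UVB-Saline and 5800 to 7966 in UVB-hCOL3A1. Of these 12 markers, 5 were negative in UVB-Saline against NoUVB and 7 in UVB-hCOL3A1 against NoUVB, and the others were positive. Trp63 (−0.33 and −0.46) and Sbsn (−0.38 in both) were among the negative ones. Krt1 (1.07 and 0.58) and Krt14 (0.87 and 0.16) were among the positive ones. The part of keratinocytes in the Cxcl14 values was not tested.

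Cxcl16, the membrane-bound ligand of Cxcr6, measured 15.5, 13.2 and 30.7 CPM in NoUVB, 18.7, 25.3 and 46.2 in UVB-Saline, and 21.4, 20.3 and 36.4 in UVB-hCOL3A1. The library labelled replicate 3 was highest in every group and the groups overlapped. The log2 difference was 0.59 ± 0.44 in UVB-Saline against NoUVB (adjusted p = 0.721), −0.21 ± 0.43 in UVB-hCOL3A1 against UVB-Saline (adjusted p = 0.902), and 0.39 ± 0.44 in UVB-hCOL3A1 against NoUVB (adjusted p = 0.78). Without UVB-Saline 3 the first was 0.14 and the second 0.25. Cxcr6 lay at 2.86 to 4.54, 4.11 to 6.18 and 3.95 to 6.04 CPM. The sheddases Adam10 and Adam17, which release Cxcl16 from the membrane, were among 6 of 8 listed proteases tested, none of which was called. Of that list Mmp9, a gelatinase that trims several CXC ligands, had the smallest p in UVB-Saline against NoUVB, at −0.80 ± 0.37 (adjusted p = 0.554).

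Counts of Cxcl16 may include reads of its neighbour. In GENCODE M21, 552 of the 3021 exon bases of Cxcl16 overlap exons of Zmynd15, and the estimated counts of both genes were fractional in all 9 libraries. Whether the authors' counting used strand is not stated in the sources used here. Zmynd15, named after its values were seen, lay at 4.5 to 17.2 CPM, with 0.287 to 0.394 counts for each count of Cxcl16, and its profile was the most like that of Cxcl16 (r = 0.98). Gpr141 (r = 0.97) and Jaml (r = 0.96) came next.

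Cxcl14 and Cxcl16 ran in opposite directions across the libraries. Over the 9 libraries log2 CPM of the 2 genes had a Pearson r of −0.94 (exact permutation p = 0.000182, 0.00273 after Benjamini-Hochberg adjustment over 15 pairs of tested members) and a Spearman rho of −0.98 (exact permutation p = 4.96e-05, adjusted 0.000744). Without NoUVB 2 and UVB-Saline 3, the 2 libraries farthest from the Cxcl14 median, r was −0.92, and with each group's mean removed it was −0.93. The pair was singled out after its values were seen. All 9 libraries carry 1 batch label and differ in their marker sums, whose part in the relation was not tested.

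**Figure D4:**
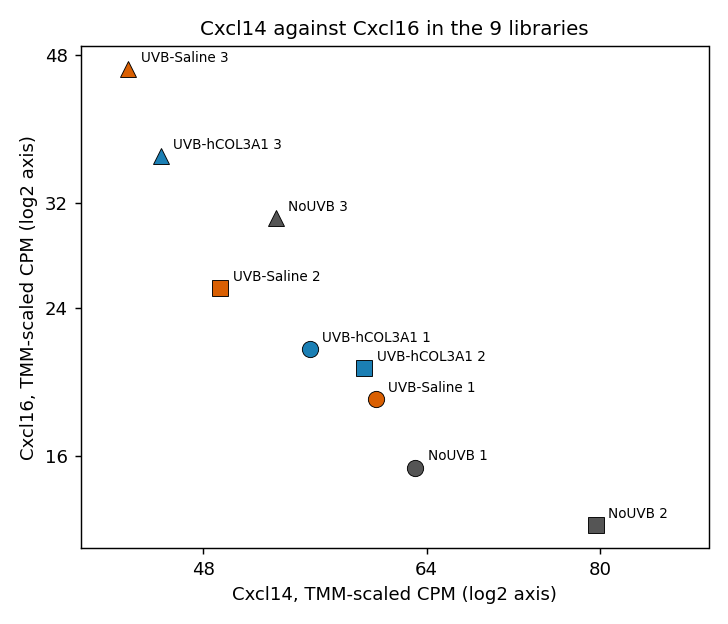
Cxcl14 (horizontal) against Cxcl16 (vertical) in the 9 libraries, in TMM-scaled CPM on log2 axes, coloured by group with shapes for the replicate number. The libraries run from NoUVB 2 (79.6 and 13.2 CPM) to UVB-Saline 3 (43.6 and 46.2 CPM), and the groups overlap along that line.

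Of the other 14 pairs, Cxcl9 and Cxcl10 alone had an adjusted p under 0.05 for r, at r = 0.86 (exact permutation p = 0.00401, adjusted 0.0301) with a rho of 0.67 (exact permutation p = 0.0589, adjusted 0.177). Without NoUVB 2 and UVB-Saline 3, r was 0.46, so that relation rests on those libraries, while with each group's mean removed and all 9 libraries kept it was 0.92. The genes most like Cxcl9 were Iigp1, Serpina3f and Irgm2 (each r = 0.97). Those most like Cxcl10 were Tpcn2, Stat2 and Tap2 (each r = 0.97, and 0.86 to 0.88 without UVB-Saline 3). Those most like Cxcl14 were Sesn3 (r = 0.98), Vat1l (r = 0.97) and Ubap2 (r = 0.96).

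One further CXC ligand stood out among those outside the 9. Pf4 (Cxcl4), known from platelet granules and also made by tissue macrophages, measured 3.55, 5.27 and 2.89 CPM in NoUVB, 3.39, 4.60 and 5.85 in UVB-Saline, and 10.5, 12.8 and 8.96 in UVB-hCOL3A1. All UVB-hCOL3A1 libraries lay above all 6 others, where 8.95% of all genes were higher with no overlap against UVB-Saline and 10.7% against NoUVB. The log2 difference was 1.22 ± 0.26 from UVB-Saline (adjusted p = 0.202) and 1.45 ± 0.27 from NoUVB (adjusted p = 0.109), and neither passed the threshold. Among 21 alternatives the first passed in 2, DESeq2 and no filter on low counts (adjusted p over all alternatives 0.00369 to 0.564), and the second in 8, which include both of these (0.000217 to 0.327). UVB-Saline and NoUVB differed by 0.23 ± 0.28. The other platelet chemokine, Ppbp, had 0 to 4 counts, and macrophage marker sums were 644 to 947 CPM in UVB-hCOL3A1 against 298 to 775 in UVB-Saline. Their part in the Pf4 values was not tested.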

How the data were processed

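RNA was measured in 9 mouse skin libraries, 3 per group, from TRIzol-extracted total RNA sequenced as paired 150 bp Illumina reads, per the labels' protocols. Tools listed in the submitters' processing notes, without roles, are RSEM 1.3.3, STAR 2.7.11b, Bowtie2 2.5.4, DESeq2 1.44.0 and fastp 0.23.4, with the build GRCm39. The sources used here give neither annotation release nor strand setting. The authors deposited 1 table of estimated counts. Between 11.1% and 14.0% of values per library were not whole and were rounded. The 525 rows without a symbol held 0.0384% of counts.

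Counts were fitted in edgeR 4.0.16 (R 4.3.3) with filterByExpr, TMM and 1 robust quasi-likelihood model of the 3 groups with 6 residual degrees of freedom. Tests were two-sided, and p-values were adjusted by Benjamini-Hochberg over 17168 genes (threshold 0.05). The SE is the log2 difference divided by the square root of F. No libraries were identical, and within-group chi-square per degree of freedom was 8.18 to 250, so each counted once.

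The members and gene lists were chosen with earlier results of these data known. Named were all members, tested receptors and ligands, and of each pathway list up to 4 genes with the smallest p in UVB-Saline against NoUVB and up to 2 in UVB-hCOL3A1 against UVB-Saline. Called list genes were added. Of the genes this rule names, 1 is not reported here. Likeness is Pearson's r over log2 CPM (prior count 2) among genes with a symbol and an average log2 CPM of at least 1, excluding predicted genes, 3 per member. Cell type lists numbered 14 and pathway lists 6. Alternatives were library size alone or DESeq2 size factors as scaling, other filters and tools (DESeq2 1.42.0, limma 3.58.1 voom with and without quality weights), dispersion, 2-group fits, a replicate block, dropping small RNA genes and leaving out libraries. Promoters are RefSeq on GRCm38.p6.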

Additional observations from a re-analysis of the deposited data

How the results depend on the processing

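With all 9 libraries in edgeR, 0 members were called in each comparison. Library size alone called 1 (Cxcl10) in UVB-Saline against NoUVB and 1 (Cxcl10) in UVB-hCOL3A1 against UVB-Saline. Leaving out 1 library gave 0 to 1 in the latter (Cxcl13, without UVB-Saline 3), and leaving out UVB-Saline 3 and UVB-hCOL3A1 3 together gave 1. Library size alone also moved the median of all genes to −0.12 in UVB-hCOL3A1 against NoUVB.

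Signs turned as follows, with ranges over leaving out 1 library. For UVB-Saline against NoUVB, Cxcl9 ran from −0.90 (without UVB-Saline 3) to 2.85 and was −0.90 without both libraries. Cxcl13 ran from −1.33 (without UVB-Saline 3; also negative without NoUVB 2 or NoUVB 3) to 0.45, and was −0.11 with library size alone, −0.53 with voom, −1.0 with voom quality weights and −1.32 without both. Cxcr3 ran from −0.36 (without UVB-Saline 3) to 0.68 and was −0.35 without both. For UVB-hCOL3A1 against UVB-Saline, the highest value without 1 library was the one without UVB-Saline 3 for Cxcl9 (−2.24 to 1.57), Cxcl10 (−2.09 to 0.050), Cxcl16 (−0.50 to 0.25), Cxcl11 (−1.95 to 0.35) and Socs1 (−1.24 to 0.095). Cxcl9 was 0.98 with quality weights and 0.86 without both. Cxcl14 ran from −0.017 to 0.20 and was −0.0055 with library size alone. For UVB-hCOL3A1 against NoUVB, Cxcl9 ran from −0.054 to 1.33 and Cxcl10 from −0.25 to 0.75, each lowest without UVB-hCOL3A1 3, and they were −0.045 and −0.25 without both. Cxcl12 ran from −0.26 to 0.064 (without NoUVB 2). Of 1062 single-gene values with an adjusted p, 976 kept direction and side of the threshold, 28 reversed, 35 newly passed and 23 no longer passed.

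Counts over all genes depended on the method, and the cause was not tested. In UVB-Saline against NoUVB, genes higher (0) became 61 with library size alone, 21 with no filter, 36 with DESeq2, 1 with quality weights, 1 without both and 0 to 7 leaving out 1 library, and genes lower (3) became 39, 52 and 64 with the first 3 of these and 0 to 5 leaving out 1 library. In UVB-hCOL3A1 against UVB-Saline, genes higher (0) became 16, 74 and 125 with those 3, 26 without both and 0 to 71 leaving out 1 library, and genes lower (0) became 14, 32 and 48, and 0 to 7. In UVB-hCOL3A1 against NoUVB, genes higher (7) became 115, 107 and 181 with those 3, 0 with voom, 55 with quality weights, 1 with non-robust dispersion, 283 with only the 2 groups, 72 without both and 0 to 180 leaving out 1 library. Genes lower (0) became 44, 71 and 88, 18 with quality weights, 124 with only the 2 groups, 19 without both and 0 to 62.

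Deviations of same-numbered libraries correlated at 0.02 to 0.41, not all above 0.1, against −0.39 to 0.26 for different numbers. The highest was that of UVB-Saline 3 with UVB-hCOL3A1 3. These ranges overlap and do not settle whether replicate numbers pair the libraries, and the main fit had no replicate block. With the replicate number as a block, 0 members were called in each comparison, Cxcl13 was −0.22 in UVB-Saline against NoUVB, and genes higher and lower were 21 and 40 in UVB-Saline against NoUVB, 60 and 14 in UVB-hCOL3A1 against UVB-Saline, and 89 and 29 in UVB-hCOL3A1 against NoUVB. Depth limits Cxcl1, Cxcl2 and Cxcl5, where differences of a few counts are not detectable.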
